A study of Mus musculus with 13 samples.

Results

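The transcripts of 7 ETS transcription factors of endothelial cells (ECs), Erg, Fli1, Ets1, Ets2, Etv2, Etv6 and Elk3, were followed through 13 RNA-Seq libraries of mouse ECs. The genes were chosen by symbol as named members of the family with known roles in vessels, with earlier results of these data known. All 7 were among the 24984 genes listed for the tumor libraries and the 24421 genes listed for the sprout libraries. The tumor ECs were sorted from orthotopic E0771 mammary tumors (a mouse breast cancer line) at day 25, as pools of 100 cells positive for CD31 and CD105 and negative for CD45. In 3 KO libraries the C57BL6/J host was Apln-/- and the tumor cells carried shApln, a hairpin against Apelin. In 6 WT libraries the C57BL6/J host was wild-type and the tumor cells carried shRenilla, a control hairpin, so that host and tumor cells were depleted of Apelin together and the deletion was present in every cell of the host. The sprout ECs were sorted on CD31 alone from embryoid bodies of haploid C57BL/6x129 embryonic stem cells, which were placed in collagen at day 8 with 30 ng/ml VEGFA164. The stem cells carried a gene trap in Apln, in the sense orientation that interrupts the gene in 2 libraries (Apln STOP) and reverted to antisense by a retrovirus with mCherry and Cre in 2 libraries (Apln GO). According to the methods of the study, GO cultures received 1000 nM Apelin peptide and STOP cultures received DMSO, so genotype, retrovirus and added peptide differed together between sister cells of 1 line. The labels do not state that libraries of a group came from separate mice or cultures, and the p-values therefore measure the spread between these libraries.

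ETS factors share a winged helix-turn-helix domain that binds DNA around a GGAA core, and most known EC enhancers contain such a core. Etv2 acts briefly in the embryo to open the endothelial and blood programs and is known to be switched off in mature vessels, while Erg, Fli1 and Ets1 take over the same genes and keep them active. Kinases downstream of VEGF receptors phosphorylate several members, which turns the repressor Elk3 into an activator and increases the activity of Ets1 and Ets2.

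Total counts ranged from 4661044 to 14455093 in the tumor libraries and from 12327030 to 16804071 in the sprout libraries, and replicates of 1 group differed by more than sampling noise. In tumor ECs, Apln averaged 7.67 ± 4.87 CPM (counts scaled to library size; SD, n = 3) in KO and 796 ± 267 CPM (SD, n = 6) in WT libraries, a log2 fold change of -6.70 (SE 0.59, adjusted p = 6.13e-05, the quasi-likelihood test of edgeR adjusted by Benjamini-Hochberg over all genes). In sprout ECs, Apln averaged 73.1 ± 9.95 CPM in the libraries labelled sense (STOP) and 62.1 ± 5.49 CPM in the libraries labelled antisense (GO) (SD, n = 2 each; adjusted p = 0.367, edgeR). The Apln count therefore did not separate the sprout libraries as their labels would, and STOP and GO stand for the sense and antisense labels throughout. Pecam1, which encodes CD31, was present in every library, at 1007 to 1789 CPM in tumor ECs and 139 to 273 CPM in sprout ECs.

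The genes lie as neighbouring pairs in part. Erg (chr16:95359169-95586600, minus strand, GRCm38) and Ets2 (chr16:95702407-95721049, plus strand) are 115.8 kb apart, and Fli1 (chr9:32422204-32543432, minus strand) and Ets1 (chr9:32636241-32757820, plus strand) are 92.8 kb apart, with 0 protein-coding genes annotated between the members of either pair. Etv2 (chr7:30633616-30636509, minus strand), Etv6 (chr6:134035700-134270158, plus strand) and Elk3 (chr10:93247415-93311159, minus strand) have no other member beside them. Elk3 shares 3680 bases with Cdk17 on the opposite strand and 4493 bases with the noncoding RNA Gm32551, Etv6 overlaps 5 noncoding RNAs by 3077 to 13626 bases, and Fli1 overlaps the small nuclear RNA Gm22060 by 107 bases. These overlaps are of whole gene spans, and shared exons were not measured. Any shared exonic bases could hold reads of either gene, since strand-specific counting is not given in the sources used here.

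RefSeq promoter windows of 300 bases (250 before the annotated start and 50 after it, GRCm38.p6) were matched for 5 of the 7 genes, Erg with 3 windows and Ets2, Etv2, Etv6 and Elk3 with 1 each. The starts used for Ets2, Etv6 and Elk3 are the 5′ ends of the genes given above, that of the first Erg window lies 7 bases inside, and that of Etv2 lies 657 bases inside the gene, so the Etv2 window covers an internal annotated start. Below are the windows of Erg and Elk3, which differed most between STOP and GO among the genes with a window, of Ets2, which differed least, and of Etv2, which held the most GGAA letters. Each is written 5′ to 3′ on the strand of its gene, and capitals mark GGAA or its reverse complement TTCC, overlapping matches included.
Erg, first of its windows, chr16:95586544-95586843, minus strand: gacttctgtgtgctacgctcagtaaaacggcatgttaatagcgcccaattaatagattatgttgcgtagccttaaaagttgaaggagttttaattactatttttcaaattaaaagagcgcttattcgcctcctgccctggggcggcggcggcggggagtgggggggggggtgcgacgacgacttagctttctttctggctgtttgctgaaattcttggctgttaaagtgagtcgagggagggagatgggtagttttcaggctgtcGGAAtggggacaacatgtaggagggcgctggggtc
Elk3, chr10:93311110-93311409, minus strand: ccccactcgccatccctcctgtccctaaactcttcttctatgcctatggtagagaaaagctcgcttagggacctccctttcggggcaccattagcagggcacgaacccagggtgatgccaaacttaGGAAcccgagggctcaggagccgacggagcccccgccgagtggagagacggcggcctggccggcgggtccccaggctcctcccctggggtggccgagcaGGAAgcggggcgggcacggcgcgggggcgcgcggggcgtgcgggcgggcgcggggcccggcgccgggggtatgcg
Ets2, chr16:95702157-95702456, plus strand: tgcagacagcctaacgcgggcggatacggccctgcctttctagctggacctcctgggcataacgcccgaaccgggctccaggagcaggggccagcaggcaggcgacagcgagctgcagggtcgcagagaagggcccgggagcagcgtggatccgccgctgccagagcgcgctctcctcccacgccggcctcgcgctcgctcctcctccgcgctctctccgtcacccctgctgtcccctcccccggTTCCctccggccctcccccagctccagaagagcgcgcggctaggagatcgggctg
Etv2, chr7:30635803-30636102, minus strand: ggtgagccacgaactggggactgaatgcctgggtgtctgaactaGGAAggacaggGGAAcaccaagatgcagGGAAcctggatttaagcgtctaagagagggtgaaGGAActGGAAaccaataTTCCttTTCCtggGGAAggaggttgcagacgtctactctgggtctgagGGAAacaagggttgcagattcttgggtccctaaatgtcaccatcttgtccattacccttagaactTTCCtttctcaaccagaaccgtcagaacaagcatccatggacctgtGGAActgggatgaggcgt

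GGAA on either strand was found in 96.0% of the 32851 windows of the genome, with a median of 3 matches, so its presence alone separates no gene from another. The 3 Erg windows held 1, 4 and 2 matches, Ets2 held 1, Elk3 held 2 and Etv6 held 6, a number that 15.7% of all windows reach. The Etv2 window held 11 matches, which 0.253% of all windows reach. The longer letters AGGAAG, which contain GGAA, were present on either strand in a window of Erg, Etv2, Etv6 and Elk3 and in 35.4% of all windows. CCGGAAGT, in 3.89% of all windows, and AACAGGAA, a composite of forkhead and ETS letters in 2.65% of all windows, were in none of the members' windows. These matches describe letters in a short window and are not evidence of binding.

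Transcripts of Erg, Fli1, Ets1 and Elk3 were lower in STOP than in GO sprout ECs by 2.93-fold to 5.10-fold in mean CPM, and passed both thresholds of the comparison (an adjusted p under 0.05 together with more than 1 log2 unit of change). Ets2 and Etv6, the most widely expressed members, were lower by 1.5-fold and 1.63-fold and passed only the adjusted p. Etv2 was lower by 2.42-fold and missed the adjusted p. Among all 14557 genes tested, 3.03% were past both thresholds on the lower side, against 4 of the 7 ETS factors. On that side 4.3% fell below the adjusted p alone, against 6 of 7. The 7 were chosen with earlier results of these data known, so these shares are a description. All 7 had an unadjusted p under 0.05 on the lower side, as did 14.3% of all genes (26.7% in either direction). STOP and GO libraries did not overlap for any of the 7, which was also true on the lower side of 29.6% of all genes with 2 libraries per group.

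Erg, which maintains junctions and quiescence in mature endothelium, was at 8.94 and 11.1 CPM in the STOP libraries and at 48.1 and 54.1 CPM in the GO libraries. The GO libraries were both far above the STOP libraries, and the log2 fold change was -2.35 (SE 0.19, 95% interval -2.80 to -1.91, adjusted p = 0.00242, edgeR). This was the 9th lowest p of all genes tested. Fli1, the closest relative of Erg and also a factor of megakaryocytes and other blood cells, was at 15.2 and 18.2 CPM in STOP and at 69.2 and 66.9 CPM in GO. Its log2 fold change was -2.03 (SE 0.16, 95% interval -2.41 to -1.65, adjusted p = 0.00242, edgeR), the 7th lowest p. The groups of Fli1 were as clearly separated as those of Erg, and the log2 ratio of Erg to Fli1 CPM was lower in STOP (-0.76 and -0.72) than in GO (-0.53 and -0.31).

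Ets1, an activator of matrix protease and angiogenesis genes, was at 74.3 and 112 CPM in STOP and at 398 and 288 CPM in GO. The GO libraries differed from each other more for Ets1 than for Erg or Fli1, yet both were above STOP, with a log2 fold change of -1.88 (SE 0.25, 95% interval -2.50 to -1.26, adjusted p = 0.0168, edgeR). Without GO replicate 1, the higher of the 2, the change was -1.63 and the adjusted p was 0.0689 in edgeR. Ets2, the neighbour of Erg and a close relative of Ets1, was at 108 and 104 CPM in STOP and at 152 and 164 CPM in GO. Its groups were close together but separate, with a log2 fold change of -0.58 (SE 0.13, 95% interval -0.88 to -0.29, adjusted p = 0.0396, edgeR). With any 1 of the 4 libraries left out, the adjusted p of Ets2 lay between 0.0701 and 0.208 in edgeR.

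Elk3, the repressor that VEGF signalling converts into an activator, was at 38.8 and 54.8 CPM in STOP and at 148 and 126 CPM in GO. The GO libraries were well above STOP, with a log2 fold change of -1.55 (SE 0.19, 95% interval -2.0 to -1.10, adjusted p = 0.00807, edgeR). Etv6, a repressor of the TEL group, was at 51.1 and 50.0 CPM in STOP and at 85.8 and 78.5 CPM in GO. Its libraries agreed closely within groups, and its log2 fold change of -0.70 (SE 0.14, 95% interval -1.02 to -0.38, adjusted p = 0.0298, edgeR) was below the fold threshold. Without STOP replicate 1, STOP replicate 2 or GO replicate 1 the adjusted p of Etv6 was 0.185, 0.0898 and 0.128 in edgeR.

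Etv2, the early hematoendothelial factor, had few reads in sprout ECs, with 43 and 33 counts in STOP (2.91 and 2.69 CPM) and 111 and 87 counts in GO (6.55 and 7.02 CPM). The groups did not overlap, but the log2 fold change of -1.27 (SE 0.33, 95% interval -2.03 to -0.51) had an adjusted p of 0.0597 in edgeR. DESeq2 and edgeR without a filter on low counts placed it past both thresholds, with adjusted p of 0.0377 and 0.0323, and over the fits that used all libraries the adjusted p ran from 0.0323 to 0.185, apart from a crossed pairing that was added after the data were seen and gave 0.00689 in edgeR. Counts by RSEM, which shares out reads that align to several places, were 0.828 to 0.953 times the HTSeq counts of Etv2.

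**Figure D1:**
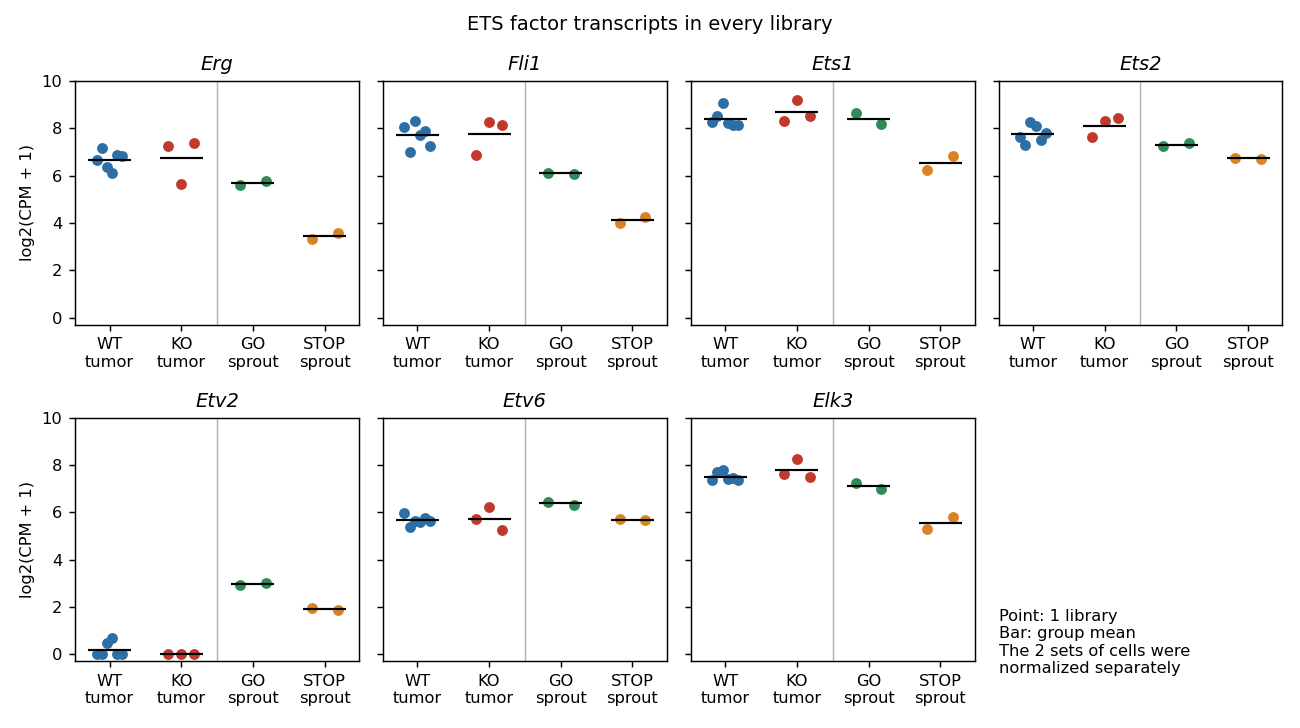
Level of each ETS factor in every library as log2(CPM + 1), with WT and KO tumor ECs left of the line and GO and STOP sprout ECs right of it. Points are libraries and bars are group means. STOP lies below GO for all 7 genes, whereas KO and WT overlap for the 6 genes tested there and Etv2 is at or near 0 in both.

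In tumor ECs, none of the ETS factors passed the thresholds between KO and WT. Of the 7, 6 had enough counts to be tested, and their log2 fold changes lay between 0.11 and 0.34, each with an interval that included 0. The count of members past the thresholds was 0 of 6 in edgeR and 0 in DESeq2, and 0 of 6 had an unadjusted p under 0.05, where 0.00765% of the 13073 genes tested passed the thresholds and 4.81% had such an unadjusted p. Groups of all 6 overlapped, as did those of nearly all genes, since 2.33% of genes had groups that did not overlap. With edgeR 1 gene, Apln, passed in this comparison, and with DESeq2 94 genes passed on the lower and 19 on the higher side, none of them an ETS factor of the 7.

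Erg was at 154, 48.5 and 165 CPM in the 3 KO libraries and at 68.7 to 142 CPM in WT, with a median of 106 CPM. KO replicate 2 was the lowest of the 9 libraries and the other KO libraries were the highest, and the log2 fold change was 0.24 (SE 0.37, 95% interval -0.55 to 1.04, adjusted p = 1.00, edgeR). Fli1 was at 117, 305 and 284 CPM in KO and at 127 to 319 CPM in WT, with a median of 223 CPM. Here KO replicate 1 was the lowest of all libraries, and the log2 fold change was 0.11 (SE 0.36, 95% interval -0.64 to 0.86, adjusted p = 1.00, edgeR). The 2 relatives did not follow each other among the tumor libraries. The log2 ratio of Erg to Fli1 CPM ran from -2.65 to 0.40 in KO and from -1.96 to 0.16 in WT. The range of the 4 sprout libraries, -0.76 to -0.31, was narrower than that of the 9 tumor libraries. The sets differed in the number of libraries and in preparation, so these ranges are a description.

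Ets1 was at 314, 590 and 364 CPM in KO and at 280 to 542 CPM in WT, with a median of 303 CPM. The highest values were KO replicate 2 and WT replicate 3, and the log2 fold change was 0.29 (SE 0.30, 95% interval -0.35 to 0.92, adjusted p = 1.00, edgeR). Ets2 was at 196, 313 and 341 CPM in KO and at 155 to 305 CPM in WT, with a median of 211 CPM. Both KO replicates 2 and 3 were above every WT library and KO replicate 1 was within WT, with a log2 fold change of 0.34 (SE 0.29, 95% interval -0.28 to 0.97, adjusted p = 1.00, edgeR).

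Etv6 was at 52.2, 73.4 and 36.9 CPM in KO and at 40.8 to 61.4 CPM in WT, with a median of 49.0 CPM. The 3 KO libraries included the highest and the lowest of the 9 and the log2 fold change was 0.11 (SE 0.35, 95% interval -0.63 to 0.86, adjusted p = 1.00, edgeR). Elk3 was at 195, 301 and 179 CPM in KO and at 163 to 218 CPM in WT, with a median of 171 CPM. KO replicate 2 was the highest of the 9, and the log2 fold change was 0.30 (SE 0.27, 95% interval -0.27 to 0.88, adjusted p = 1.00, edgeR). KO replicate 2, the most deeply sequenced tumor library, was therefore the highest of all for Ets1, Etv6 and Elk3 and the lowest for Erg.

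Etv2 was at 0 counts in all KO libraries and in 4 of 6 WT libraries, and WT replicates 3 and 4 held 4 and 3 counts. A count of 0 allows up to 3 counts of a library, or 0.211 to 0.548 CPM over the 7 tumor libraries at 0, for counting error only. No fold change is given for Etv2 in tumor ECs.

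**Figure D2:**
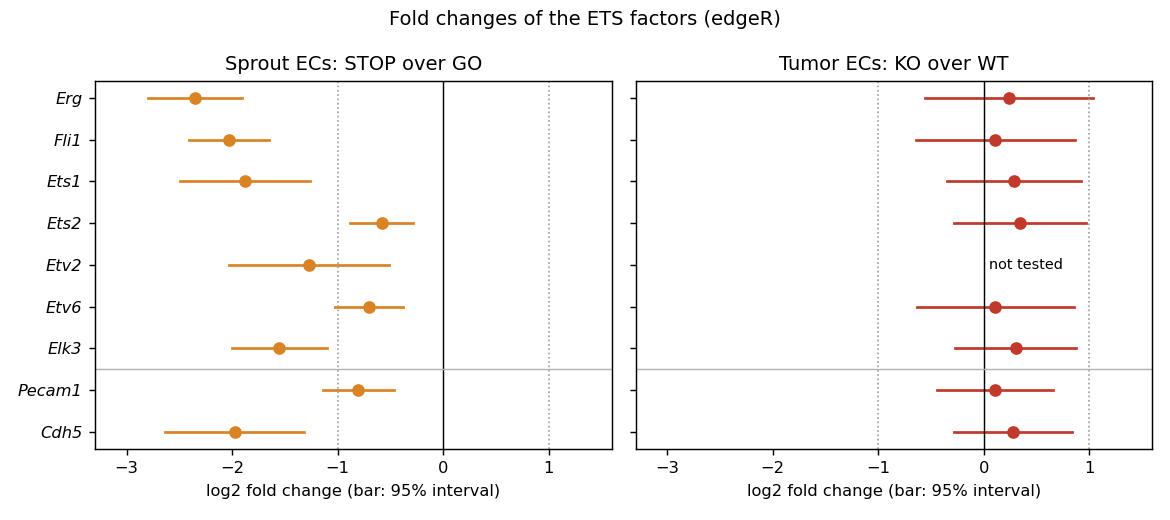
Log2 fold changes (edgeR) of the ETS factors and of the EC markers Pecam1 and Cdh5, STOP over GO in sprout ECs at left and KO over WT in tumor ECs at right, with 95% intervals as bars and dotted lines at an absolute change of 1. All sprout intervals lie below 0 and all tumor intervals include 0, with Etv2 not tested in tumor ECs.

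Whether the 2 effects differed was tested directly, over the 11737 genes tested in both sets of cells. The KO minus WT effect exceeded the STOP minus GO effect by 2.33 for Erg (adjusted p = 0.0118), 2.15 for Fli1 (adjusted p = 0.00785), 2.19 for Ets1 (adjusted p = 0.00518) and 1.87 for Elk3 (adjusted p = 0.00443), on the log2 scale by limma with a weight per set. For Ets2 the difference was 0.94 (95% interval 0.30 to 1.58, adjusted p = 0.140) and for Etv6 0.84 (95% interval 0.08 to 1.61, adjusted p = 0.305) in limma. Thus 4 of 6 members differed on this side, where 1.64% of genes did. An interaction term in edgeR gave the 4 genes adjusted p of 0.131 to 0.275, with differences of 1.85 to 2.59. It called 2 genes of all on this side, so the call rests on the limma fit. With the replicate number as a block limma called 0 of the 4, although these numbers did not pair the libraries. Over all genes the limma count of 192 was 46 without STOP replicate 1, 107 without GO replicate 1, 126 without KO replicate 3, 127 without WT replicate 4 and 300 without GO replicate 2. Without STOP replicate 1 the limma fit called 2 of the 4, Ets1 and Elk3, and without KO replicate 3 the adjusted p of Erg was 0.0606. The cells, sorting, library preparation and counting also differed between the 2 sets, and their parts cannot be told apart.

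Levels of different genes were compared per length, with the TPM of the sprout libraries and, for the tumor libraries, counts divided by gene length and scaled in the same way as TPM. In GO the order was Ets1 (107 TPM), Ets2 (67.5 TPM), Elk3 (48.2 TPM), Fli1 (33.7 TPM), Erg (24.8 TPM), Etv6 (22.5 TPM) and Etv2 (8.83 TPM), with no overlap between neighbours in 2 libraries. In STOP, Ets2 led at 40.0 TPM, followed by Ets1 (25.3 TPM), Elk3 (14.9 TPM), Etv6 (12.4 TPM), Fli1 (7.73 TPM), Erg (4.34 TPM) and Etv2 (3.58 TPM), and only Elk3 and Etv6 overlapped. Ets1 and Ets2 thus exchanged places, and Etv6 stood above Fli1 and Erg in STOP and below them in GO. The share of Erg in the summed level of the 7 was 4.01% in STOP and 8.05% in GO on average, and that of Ets2 was 37.1% and 21.8%.

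In WT tumor ECs the length-scaled order was Ets1 (141 length-scaled units), Fli1 (138), Ets2 (127), Elk3 (86.7), Erg (64.0), Etv6 (17.7) and Etv2 (0.34), where each of the first 5 overlapped its neighbour over the 6 libraries. In KO the order was Ets1 (166 units), Ets2 (155), Fli1 (144), Elk3 (105), Erg (74.3) and Etv6 (19.0), again with overlap down to Erg. The clear steps were those from Erg to Etv6 and from Etv6 to Etv2. Fli1 made up 21.0% and 23.7% of the 7 in KO and WT tumor ECs on average, against 7.14% and 10.8% in STOP and GO, values from separately counted sets that were set side by side without a test.

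**Figure D3:**
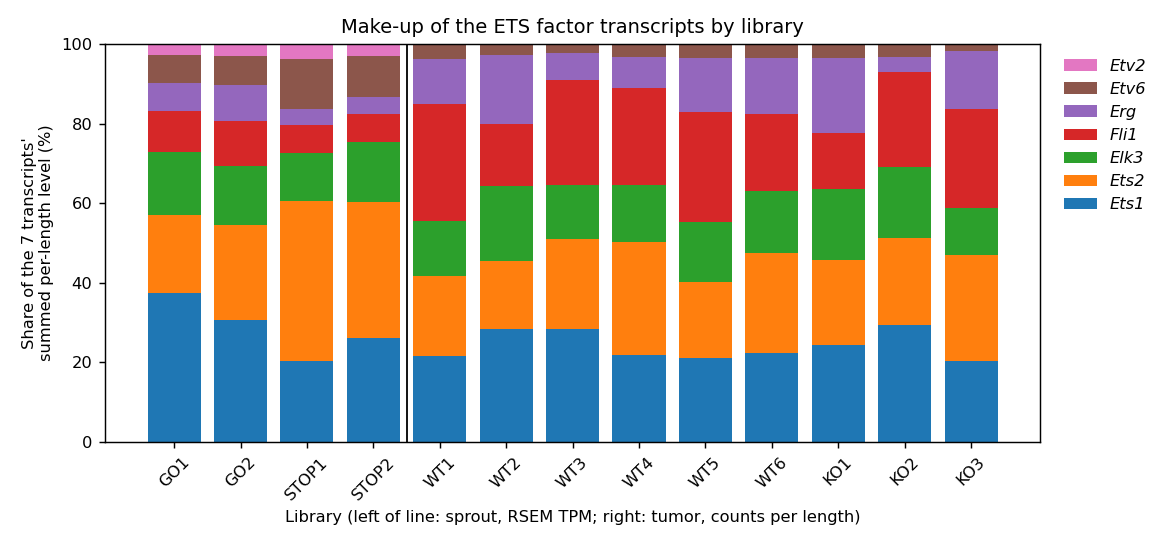
Share of each ETS factor in the summed per-length level of all 7, for every library, with sprout libraries (RSEM TPM) left of the line and tumor libraries (counts per length) right of it. Ets2 and Etv6 take a larger share in both STOP libraries than in both GO libraries, and Ets1, Erg and Fli1 a smaller one.

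Markers of ECs moved with the ETS factors in the sprouts. Of 12 endothelial markers, 11 were past both thresholds on the lower side in STOP (3.03% of all genes). All 12 passed the adjusted p on that side (4.3% of all genes). Their median log2 fold change was -1.91 and their summed level was 662 to 894 CPM in STOP and 2489 to 2597 CPM in GO. Cdh5, which encodes VE-cadherin, changed by -1.98 (adjusted p = 0.0173, edgeR) and Pecam1 by -0.80 (adjusted p = 0.0244, edgeR). All 11 pluripotency markers were higher in STOP, as were 7346 of all 14557 genes tested. Past both thresholds were 2 of them (Dppa5a and Fgf4), and 124 of all genes on the higher side. The sum of the 11 was 5827 to 6078 CPM in STOP and 2349 to 3845 CPM in GO. Pou5f1, a defining factor of stem cells, which also carry CD31, was at 791 ± 12 CPM in STOP and 420 ± 155 CPM in GO (SD, n = 2 each; adjusted p = 0.0867, edgeR). The summed erythroid and megakaryocyte markers, a lineage that shares Fli1 and Etv6 with ECs, were at 22.0 to 68.6 CPM in STOP and 217 to 323 CPM in GO, with 0 of 7 past the thresholds in edgeR, 4 of 7 at an unadjusted p under 0.05 on the lower side (14.3% of all genes) and 3 past the thresholds in DESeq2. Leukocyte markers summed to 32.9 to 48.6 CPM in STOP and 28.2 to 49.7 CPM in GO. Laptm5 held most of this sum, at 26.3 to 41.2 CPM in STOP and 18.6 to 33.3 CPM in GO. Of the 8 tested, 5 were lower and 3 higher in STOP, with a median log2 fold change of -0.86. On the lower side 3 had an unadjusted p under 0.05 in edgeR, and 1 of 8 (Fcer1g) was past the thresholds. Ptprc was at 0 to 3 counts in STOP and 8 to 12 counts in GO. In these bulk libraries a smaller share of ECs and less RNA per EC cannot be told apart, and the part of other cells in the changes of the ETS factors was not tested.

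Set against the mean of the 12 endothelial markers in the same library, on the log2(CPM + 1) scale, the ETS factors separated. Erg was -1.97 and -1.95 relative to the markers in STOP and -1.57 and -1.35 in GO, a mean difference of -0.50. For Fli1 the difference was -0.22, with both STOP libraries below both GO libraries, and for Ets1 it was -0.13, with overlap. Elk3 was higher relative to the markers in STOP by 0.20, Etv2 by 0.71, Etv6 by 1.06 and Ets2 by 1.17, each without overlap. The log2 fold change of Erg nevertheless lay within the -2.50 (Emcn) to -0.80 (Pecam1) of the single markers, while those of Ets2 and Etv6 were smaller than that of any marker. Against Pecam1 alone, the gene of the sorted protein, the differences were -1.44 for Erg, -1.16 for Fli1, -1.07 for Ets1, -0.74 for Elk3, -0.23 for Etv2, 0.12 for Etv6 and 0.23 for Ets2. The mean of the 12 markers was itself 5.26 and 5.57 in STOP and 7.19 and 7.14 in GO. A gene with little change therefore also comes out higher against it, and the median log2 fold change of all genes tested was 0.01. The share of all genes that separate on this scale was not computed, and no test was made of these ratios.

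**Figure D4:**
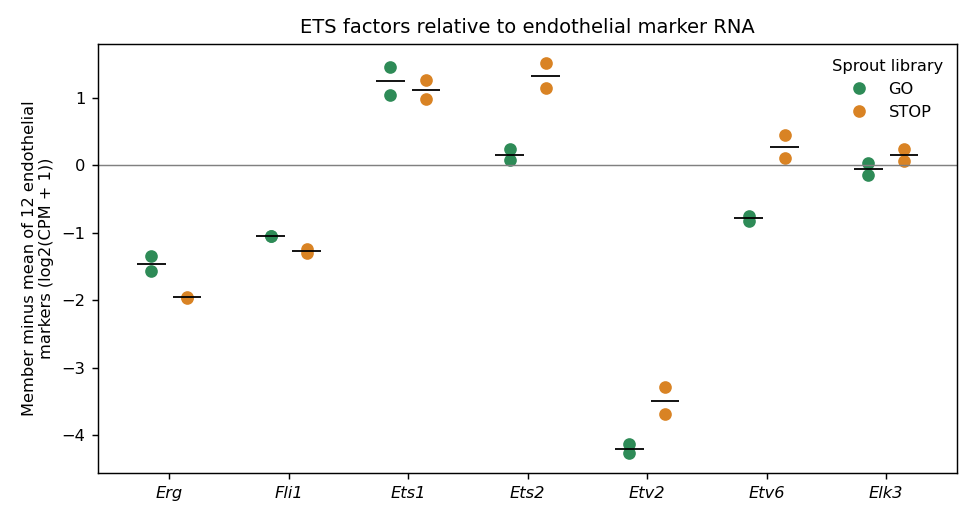
Each ETS factor minus the mean of 12 endothelial markers in the same sprout library, in log2(CPM + 1), with 1 point per library and bars at the group means. Erg and Fli1 are lower in STOP than in GO by this measure, Ets1 overlaps, and Ets2, Etv2, Etv6 and Elk3 are higher. The marker mean is lower in STOP, so a gene with little change would also be higher here.

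In tumor ECs the endothelial markers summed to 11265 to 14458 CPM in KO and 8618 to 12829 CPM in WT, with 0 of 12 past the thresholds in edgeR and 0 in DESeq2, 1 of 12 at an unadjusted p under 0.05 and a median log2 fold change of 0.36. Relative to these markers the 6 ETS factors tested overlapped between KO and WT. Leukocyte markers summed to 46.5 to 1359 CPM in KO and 53.4 to 880 CPM in WT, fibroblast markers to 45.1 to 179 CPM in KO and 140 to 5030 CPM in WT, mural markers to 81 to 103 CPM and 94.4 to 481 CPM, and epithelial markers to 9.85 to 47.2 CPM and 9.32 to 66.8 CPM. WT replicate 2 alone held the upper end of the fibroblast sum, and it also had the highest level of the mural marker Pdgfrb. In edgeR 0 of 10 leukocyte, 0 of 10 mural, 0 of 5 fibroblast and 0 of 2 epithelial markers passed both thresholds, and an unadjusted p under 0.05 was seen for 0, 2, 2 and 0 of them (4.81% of all genes in either direction). Of the mural markers 9 of 10 were lower in KO (median log2 fold change -1.34) and of the fibroblast markers 5 of 5 (median -3.32), whereas the 10 leukocyte markers were higher (median 1.22). With DESeq2, 1 mural marker (Pdgfrb) and 1 fibroblast marker (Col6a3) were past the thresholds on the lower side. The part of these cells in the levels of the ETS factors was not tested.

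Genes that ETS factors are known to regulate, outside the endothelial markers, were lower in STOP as well. Of 15 such genes, 11 were past both thresholds on the lower side (3.03% of all genes) and 0 on the higher side. The median of the 15 was -1.73 on the log2 scale against 0.01 over all genes tested, and their summed level was 410 to 536 CPM in STOP and 1341 to 1445 CPM in GO. The 6 with the lowest p were Flt4, the receptor of VEGF-C (-1.71, adjusted p = 0.00242), the hematoendothelial factor Tal1 (-2.52, adjusted p = 0.00242), the nitric oxide synthase Nos3 (-1.80, adjusted p = 0.00263), the VEGF receptor Flt1 (-1.73, adjusted p = 0.00281), the Tal1 partner Lmo2 (-2.27, adjusted p = 0.00621) and the adhesion molecule Icam2 (-2.03, adjusted p = 0.00701), all in edgeR. In tumor ECs 0 of these 15 passed in edgeR and 0 in DESeq2, 1 had an unadjusted p under 0.05, and the median was 0.40 against -0.03 over all genes. These genes are also EC markers in part, so their change is not separate evidence of ETS activity.

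Among 17 partners and kinases, 2 were past both thresholds on the lower side in STOP (3.03% of all genes). They were the forkhead factor Foxc2 (-2.31, adjusted p = 0.00572, edgeR), which binds composite sites together with ETS factors, and Runx1 (-1.68, adjusted p = 0.0133, edgeR), a blood factor that partners with Ets1. Foxc2 was at 4.06 to 5.05 CPM in STOP and 19.9 to 25.3 CPM in GO, and Runx1 at 8.80 to 10.6 CPM and 25.1 to 37.1 CPM. The median of the 17, which include co-repressors, acetyltransferases and kinases of the MAPK cascade, was -0.12. In tumor ECs 0 of 17 passed in edgeR and 0 in DESeq2, 0 had an unadjusted p under 0.05 and the median was 0.01.

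Other genes of the ETS family did not share the direction of the 7. Both lists were chosen with earlier results of these data known. Of 16 tested in sprout ECs, 8 were lower and 8 higher in STOP, with a median of 0.04, and 0 passed both thresholds in edgeR and 0 in DESeq2, while 6 had an unadjusted p under 0.05 (26.7% of all genes). The largest mean CPM over the 4 libraries was that of the epithelial factor Elf3, at 205 to 267 CPM in STOP and 104 to 159 CPM in GO (log2 fold change 0.84, adjusted p = 0.0928, edgeR), although Erf had the larger mean in GO (138 CPM). Elk1, a relative of Elk3 that was singled out after its values were seen, was the 1 gene of this list under the adjusted p, at 68.6 to 68.9 CPM in STOP and 41.2 to 45.9 CPM in GO (log2 fold change 0.66, adjusted p = 0.0391, edgeR). In tumor ECs 0 of 13 passed in edgeR, 1 had an unadjusted p under 0.05 and was past the thresholds in DESeq2 (Elf3, at 0 counts in KO and 1 to 92 counts in WT), and the median was -0.38, also with Elf3 set to its floor of 3 counts. Elf1, with the largest CPM there, was at 101 to 117 CPM in KO and 91.8 to 243 CPM in WT.

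**Figure D5:**
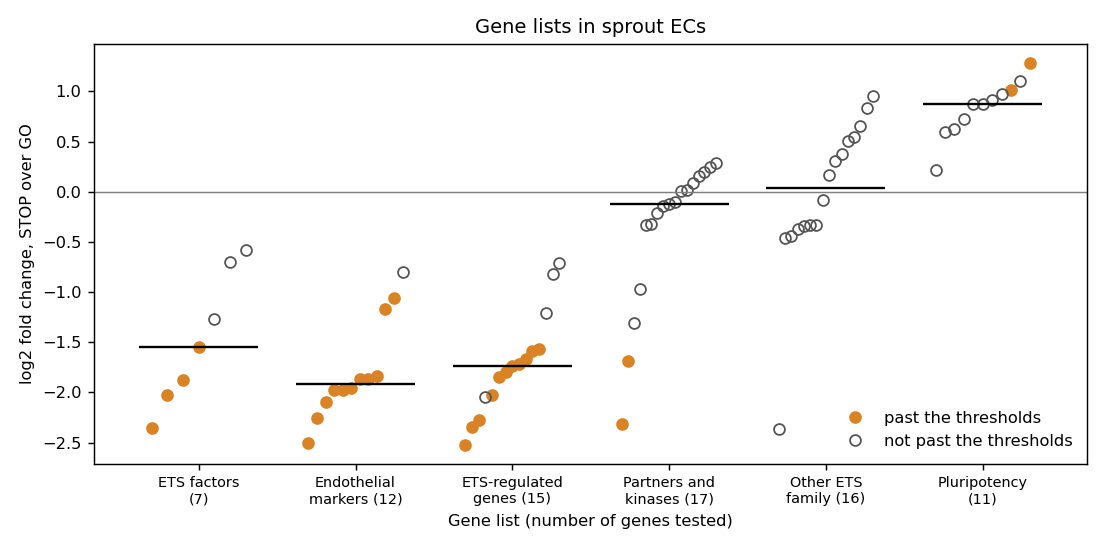
Log2 fold changes (STOP over GO, edgeR) of the genes tested in 6 lists in sprout ECs, with filled points past both thresholds and a bar at the median of each list. ETS factors, endothelial markers and ETS-regulated genes lie below 0, other ETS family genes lie on both sides, and pluripotency markers lie above 0.

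The genes whose pattern was most like that of a member were found by the root mean square difference of log2(CPM + 1), centred within each set, over the 13 libraries and 11737 genes. For Erg they were Ptprb (0.25), Mecom (0.30), Itpr2 (0.34), Pde4b (0.34) and S1pr1 (0.36), against a median of 0.98 over all genes. For Fli1 they were Plekho1 (0.20), Cd93 (0.26), Cdh5 (0.30), Adcy4 (0.31) and Cbfa2t3 (0.32), against a median of 0.91. All 10 were lower in STOP than in GO, with log2 fold changes from -1.71 to -2.29. Of the other members, Ets1 was nearest to Fli1, at rank 17 with a difference of 0.39, whereas Fli1 was at rank 1579 from Erg with 0.77. Etv6 lay nearest to Zfp91 (0.17), Trak2 (0.18), Slc30a7 (0.19), Pdlim7 (0.19) and Plec (0.20), against a median of 0.66. Likeness over 13 libraries from 2 sets is a description, since the libraries share the contrast between STOP and GO.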

How the data were processed

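RNA-Seq was measured in 9 tumor EC and 4 sprout EC libraries. The authors deposited 1 file of whole-number counts per library, without normalization. Tumor counts came from featureCounts (Subread 1.6.2), and the submitters' notes also list Trim Galore 0.5.0, Bowtie2 2.3.4.1 and SAMtools 1.9, whereas the methods name STAR for these libraries. Sprout reads were aligned with STAR 2.5.0a and counted with HTSeq 0.6.1p1, which drops reads with several alignments. For the sprouts the authors also deposited RSEM 1.2.25 expected counts, rounded here before use, and TPM. The build was mm10. Lines that tally unassigned reads (54.1% to 59.1% of sprout reads) were left out.

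From these counts, TMM-scaled CPM were computed, and each set was tested over all genes in R 4.3.3 with edgeR 4.0.16 (quasi-likelihood, robust, at least 10 counts by filterByExpr, Benjamini-Hochberg adjustment). The difference of the effects was tested with limma 3.58.1 (voom, 1 quality weight per set). An SE is the log2 fold change over the root of its F. Scripts were tested on simulated data. The 2 sets were normalized separately. Tumor levels per length used RSEM gene lengths.

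The members and gene lists were chosen with earlier results of these data known. Genes outside the 7 were named by lowest p among those past the thresholds, up to 6 per list, with the other ETS gene with the largest CPM, the 5 most alike genes and the defining markers. The alternatives were DESeq2 1.42.0, its size factors in edgeR, other filters, RSEM counts, voom, no fold threshold, replicate blocks and leaving out each library. Protein sequences were not compared.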

Additional observations from a re-analysis of the deposited data

Results flagged for a closer look

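Ets1 in the WT tumor libraries had 1 sample far from the others, WT replicate 3 at 542 CPM, with a gap of 0.67 of the group's range. It was 1 of the 7 WT groups examined, and chance alone gives such a gap in about 1 of 20 groups.

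The KO minus WT effect differed from the STOP minus GO effect by limma for Erg (2.33, adjusted p = 0.0118), Fli1 (2.15, adjusted p = 0.00785), Ets1 (2.19, adjusted p = 0.00518) and Elk3 (1.87, adjusted p = 0.00443), on the log2 scale with 3 KO, 6 WT, 2 STOP and 2 GO libraries. An interaction term in edgeR called 0 of these 4 (adjusted p = 0.131 to 0.275), and without STOP replicate 1 limma called 2 of them, Ets1 and Elk3.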

How the results depend on the processing

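Between KO and WT, 0 of the 6 members tested passed the thresholds in the 16 alternatives run, but the sign of small changes moved. With the replicate number as a block, Fli1 was at -0.029, and with 1 library left out the log2 fold change ran from -0.037 to 0.62 for Erg, -0.12 to 0.43 for Fli1, -0.036 to 0.46 for Ets1 and -0.18 to 0.33 for Etv6. Over all genes, the count past the thresholds was 1 lower and 0 higher in the reported fit, 94 and 19 with DESeq2, and 7 and 9 without a filter. Between STOP and GO, 4 members passed, 3 to 4 with 1 library left out, 5 with DESeq2, and 2 (Erg and Fli1) with the replicate number as a block, where the adjusted p of Ets1 was 0.0864 and of Elk3 0.0606 in edgeR. Over all genes the counts were 441 lower and 124 higher, 628 and 197 with DESeq2, 632 and 222 without a filter, 41 and 3 with the block, and 135 to 548 lower and 12 to 341 higher with 1 library left out. The same numbers did not pair the libraries, with a correlation of deviations of -0.434 in the sprouts and -0.140 to 0.0574 in the tumors. A crossed pairing, chosen after seeing the data, called 933 lower and 302 higher. For the difference of the effects, 4 members passed in limma, 0 with edgeR, 0 with the replicate block, and 2 to 4 with 1 library left out, the lowest without STOP replicate 1. Over all genes 13 were lower and 192 higher in limma, 1 and 2 with edgeR, 1 and 0 with the block. The causes were not tested.

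Etv2 had at most 4 counts in any tumor library, which allowed no fold change, and each sprout group had 2 libraries. With 1 sprout library left out, the lone library of its group was assumed to vary like the other group.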
